A study of Mus musculus with 6 samples.

Results

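Chemokine ligand genes were followed in cells sorted from mouse lungs for a green reporter of Pdgfra, whose product is a PDGF receptor of mesenchymal cells. Members were chosen by symbol alone: every Ccl or Cxcl symbol with a number, plus Cx3cl1 and Xcl1. This gave 39 of the 48397 gene symbols in the count files, of which 24 belong to the CC class, 13 to the CXC class, 1 to the CX3C class and 1 to the C class. Pf4 and Ppbp, CXC chemokine genes with other symbols, fall outside this choice and were read as platelet markers. The sorted cells came from pups of genotype PdgfraEGFP/+ at postnatal day 8, whose PdgfraEGFP/+ dams had been injected intraperitoneally at E18.5. The dams received either 5E1, a monoclonal antibody that binds hedgehog ligands, or control IgG, giving 3 libraries per group. All libraries therefore share the reporter allele and come from cells that passed the same sort for live, EGFP-positive cells. The labels do not say whether a library holds 1 pup or a pool, nor whether libraries of a group come from separate litters, so the p-values cover only sample-to-sample spread, which may be technical. Reads of the Y-linked genes Ddx3y, Uty, Kdm5d and Eif2s3y numbered 3592 to 6913 in 4 libraries, 2 in each group, which also held Xist at 174 to 459 CPM. IgG replicate 3 and 5E1 replicate 1 had 2 Y-linked reads each and Xist at 1038 and 1509 CPM. The library numbers in the labels run through IgG first and then 5E1, so if they give the order of handling, order and antibody cannot be told apart. Gene counts summed to 16958433 to 34318583 reads per library. Levels are given as CPM, each count scaled to the gene counts of its library after TMM scaling of library sizes.

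Chemokines are small secreted proteins that steer leukocytes and some other cells along gradients through G protein-coupled receptors. They are classed by the spacing of cysteines near their amino end, and atypical receptors remove them without the usual signalling. Fibroblasts make several of them, among them Cxcl12, and many members of the family are induced by NF-kB or by interferon. Others are made mainly by macrophages, dendritic cells or epithelium, so in a sorted bulk sample the level of a ligand and the mix of cells sorted cannot be told apart. Likewise, fewer cells of a type and less RNA per cell give the same reading here.

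As a check of the label, the fibroblast genes Col1a1, Col1a2 and Col3a1 measured 14738 ± 2605, 14949 ± 2535 and 20571 ± 4133 CPM in IgG (SD, n = 3). The hedgehog target genes Ptch1, Hhip and Gli1 fell in 5E1, with log2 fold changes of -2.19, -2.37 and -1.12 and edgeR adjusted p of 4.12e-06, 1.84e-05 and 0.00109. Markers of other cell types were also present. The summed level of 12 neutrophil markers was 13.3 to 17.9 CPM in the IgG libraries and 132 to 213 CPM in the 5E1 libraries, with 9 of 9 tested members higher, where 12.1% of all genes tested were higher. Of these 9, Cxcr2, Camp and Mmp8 reached 1 CPM in the 5E1 libraries alone, and Ly6g, Mpo and Elane were too low to test. The share thus describes markers that passed the filter on low counts, which a gene can pass through the group in which it is high. For 13 macrophage and monocyte markers the sums were 96.3 to 121 and 155 to 278 CPM, with 8 of 13 higher. The 10 T and NK cell markers summed to 2.06 to 4.43 CPM over both groups, and none of the 3 tested was called. 5E1 replicate 2 stood apart in markers of other tissue compartments, with 1430.2 CPM summed over 9 epithelial markers against 416 to 673 CPM in the other 5 libraries. Over 9 endothelial markers it had 335 CPM against 122 to 177 CPM. Sums for mast cell and basophil markers (8.34 to 9.57 against 27.2 to 44.1 CPM), mesothelial markers (44.8 to 82.9 against 121 to 229 CPM) and platelet markers (7.05 to 7.59 against 11.4 to 14.8 CPM) also did not overlap between IgG and 5E1. In these lists 3 of 3, 2 of 5 and 3 of 4 tested members were higher, beside the same 12.1% of all genes tested. Kit (6.90 ± 1.07 and 29.3 ± 7.32 CPM) made up most of the mast cell sums. Upk1b (35.9 ± 6.36 and 109 ± 20.9 CPM) made up most of the mesothelial sums, and Msln, Upk3b and Wt1 were not called. The platelet marker Gp1bb had a log2 fold change of -0.20 and was not called. The part of these cells in the chemokine results was not tested.

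Most chemokine ligand genes that could be tested read higher after 5E1. Reads were found for 34 of the 39 genes, 27 passed the filter on low counts, and 21 had at least 1 CPM, taken on plain gene counts, in 3 or more libraries. Among the 27 tested, 10 rose (37.04%), 1 fell and 16 did not pass, at an edgeR adjusted p under 0.05. Over all 16198 genes tested, 12.1% rose, 11.1% fell and 23.2% were called in either direction. All 10 that rose and the 1 that fell were among the 21. The 10 were Ccl3, Ccl7, Ccl9, Ccl11, Ccl17, Ccl22, Cxcl1, Cxcl2, Cxcl12 and Cxcl16, and the 1 was Cxcl13. The median log2 fold change of the 27 was 0.75, against 0.00 for all genes tested. A gene can pass a filter on low values through the group in which it is high, so these counts describe the tested genes and not the whole family. Among the 21, Ccl17 reached 1 CPM in the 5E1 libraries alone. All 3 5E1 libraries lay above all 3 IgG libraries for 16 of the 27 and below them for 1, where 20.8% of all genes tested lay above and 21.4% below. The number that rose was 4 without IgG replicate 3 and 5 without 5E1 replicate 3, and 8 to 12 under other scalings, tests and filters. Scaling by library size alone shifted all genes to a median of -0.14, and the split of all calls from 1966 higher and 1791 lower to 1312 and 3279.

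**Figure D1:**
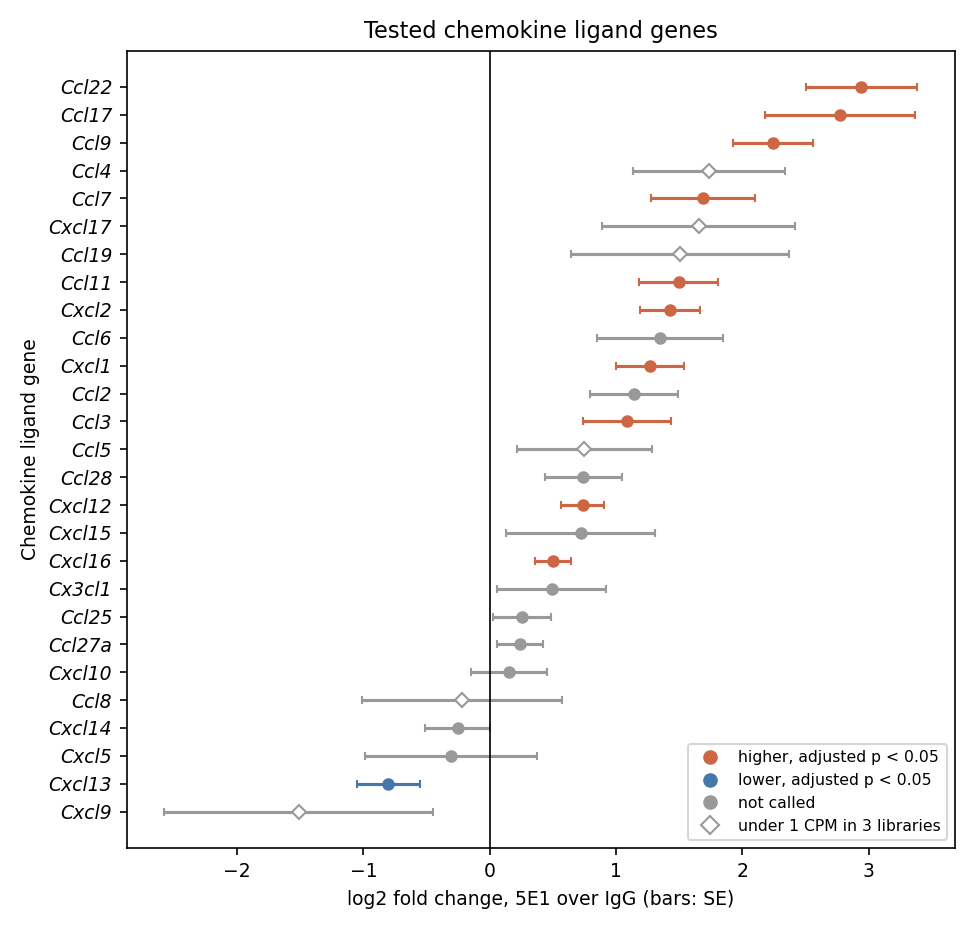
Log2 fold changes of the 27 tested chemokine ligand genes, 5E1 over IgG, with bars of 1 SE from the edgeR fit of 3 libraries per group. Ccl22 (2.94), Ccl17 (2.77) and Ccl9 (2.24) stand at the top, Cxcl13 (-0.80) is the 1 gene called lower, and open diamonds mark the 6 genes under 1 CPM in 3 libraries, none of which was called.

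Levels between genes were compared per kilobase of annotated exon. Ccl11 and Cxcl1 led in the IgG libraries at 24.1 ± 6.404 and 22.9 ± 7.302 CPM per kilobase (SD, n = 3), a difference within their spread. Cxcl12 followed at 14.8 ± 3.74 and Cxcl14 at 13.0 ± 4.70 CPM per kilobase, also within their spread. In 5E1, Ccl11 stood at 67.8 ± 23.1, Cxcl1 at 55.3 ± 12.0, Cxcl12 at 24.6 ± 1.78 and Ccl7 at 22.5 ± 6.89 CPM per kilobase. Cxcl14, at 11.0 ± 1.26, then had a mean below those of Ccl2 (14.4 ± 2.56), Ccl6 (12.8 ± 8.86) and Cxcl15 (12.02 ± 9.56), though within the spread of the last 2. The exon length counts all annotated isoforms, 8176 bases for Cxcl12, and so understates a gene whose long isoforms are little used. By reads alone, Cxcl12 took 38.4% ± 1.81 of all chemokine ligand reads in IgG and 35.5% ± 7.35 in 5E1. The summed level of the 39 genes was 374, 236 and 328 CPM in IgG replicates 1 to 3 and 493, 679 and 566 CPM in 5E1 replicates 1 to 3, with no overlap between the groups.

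**Figure D2:**
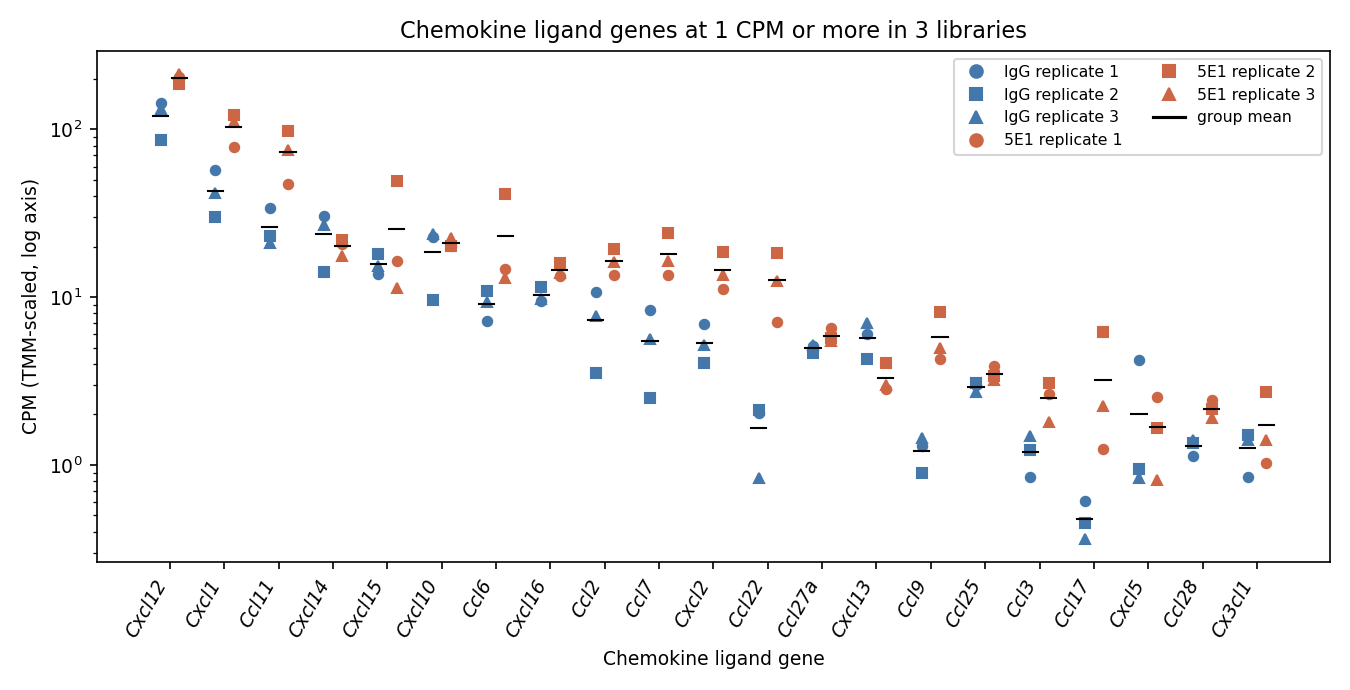
CPM of the 21 chemokine ligand genes with at least 1 CPM in 3 libraries, on a log axis, ordered by mean CPM. Points are libraries, blue for IgG and orange for 5E1, and black lines are means of 3. The groups part for 15 genes with 5E1 above and for Cxcl13 with 5E1 below, and overlap for Cxcl14, Cxcl15, Cxcl10, Cxcl5 and Cx3cl1. Over all genes tested, 5E1 lay above for 20.8% and below for 21.4%.

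Cxcl12 is the ligand of Cxcr4 and is taken up by the scavenging receptor Ackr3. It measured 144, 86.05 and 132 CPM in IgG replicates 1 to 3 and 204, 185 and 214 CPM in 5E1 replicates 1 to 3. All 5E1 libraries were above the highest IgG library, and IgG replicate 2 was the lowest. Cxcl12 rose by a log2 fold change of 0.73 (SE 0.17, edgeR adjusted p 0.0169, and 0.0667 without 5E1 replicate 3). Its scavenger went the other way: Ackr3 fell from 65.4, 56.7 and 65.2 CPM to 45.9, 39.1 and 43.7 CPM. This is a log2 fold change of -0.54 (SE 0.10, edgeR adjusted p 0.00270), which was called in all 15 alternatives tried. Cxcr4 measured 20.2 ± 1.42 CPM in IgG and 16.1 ± 3.23 CPM in 5E1 and was not called (edgeR adjusted p 0.147), except at 0.0185 without 5E1 replicate 2. Receptor genes that were not called, such as Cxcr4, are named as partners of ligands and after their values were seen. Cxcl14, a chemokine made constitutively in several tissues, measured 30.4, 14.1 and 27.0 CPM in IgG and 20.7, 22.0 and 17.5 CPM in 5E1. Its groups overlapped and its log2 fold change of -0.25 (SE 0.26) was not called (edgeR adjusted p 0.526), but it was -0.52 with an adjusted p of 0.0333 without IgG replicate 2.

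Cxcl1 and Cxcl2, which draw neutrophils through Cxcr2, rose together. Cxcl1 measured 57.1, 29.8 and 41.8 CPM in IgG replicates 1 to 3 and 78.6, 122 and 111 CPM in 5E1 replicates 1 to 3. Cxcl2 measured 6.87, 4.03 and 5.15 CPM against 11.2, 18.6 and 13.5 CPM. For both genes every 5E1 library was above every IgG library, with IgG replicate 2 the lowest and 5E1 replicate 2 the highest. The log2 fold changes were 1.27 for Cxcl1 (SE 0.27, edgeR adjusted p 0.0189) and 1.43 for Cxcl2 (SE 0.24, edgeR adjusted p 0.00221). Cxcl2 was called in all 15 alternatives. The call of Cxcl1 ended, at edgeR adjusted p of 0.0585 to 0.0944, without IgG replicate 3, 5E1 replicate 2 or 5E1 replicate 3 and with no low-count filter. Other ligands of the same receptor among the members chosen by symbol did not pass. Ppbp, a further ligand outside that choice, rose by 2.07 on the log2 scale (SE 0.47, edgeR adjusted p 0.00985). Its level was low, at 0.333 ± 0.106 CPM in IgG and 1.43 ± 0.521 CPM in 5E1, and it reached 1 CPM in the 5E1 libraries alone. Cxcl5 measured 4.22, 0.951 and 0.834 CPM in IgG and 2.55, 1.67 and 0.809 CPM in 5E1, and was high in IgG replicate 1 alone among the IgG libraries (log2 fold change -0.31, SE 0.68, edgeR adjusted p 0.785). Leaving out IgG replicate 1 gave a log2 fold change of 0.89. Cxcl3 had too few reads to be tested. Cxcl15, known in mice as a product of lung epithelium, measured 13.7, 18.1 and 15.4 CPM against 16.4, 48.9 and 11.4 CPM, so that 5E1 replicate 2, the library with the most epithelial marker reads, alone was high. The difference was 0.72 on the log2 scale (SE 0.59, edgeR adjusted p 0.447), and -0.18 without that library. Cxcr2, itself among the neutrophil markers, rose from 0.374 ± 0.358 to 2.79 ± 1.33 CPM (2.84 on the log2 scale, SE 0.70), with an edgeR adjusted p of 0.0175 that became 0.0715 when IgG replicate 2 was left out. S100a9 and S100a8, calprotectin genes of neutrophils, measured 6.202 ± 0.789 and 3.02 ± 0.169 CPM in IgG and 74.2 ± 16.3 and 49.7 ± 13.6 CPM in 5E1.

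Cxcl1, Cxcl2, Cxcl3, Cxcl5 and Cxcl15 are neighbours on chromosome 5 of mm10, from 90759360 to 90905938, and 4 of these 5 were tested. The promoter windows of the pair that rose are shown because both hold the same 10-base NF-kB motif match a similar distance before the gene start. They are RefSeq windows on GRCm38.p6, 250 bases before to 50 bases after the start, written 5′ to 3′ on the gene's strand. Capitals mark matches to an NF-kB motif, GGGA, any 4 bases and CC, on either strand, and overlapping matches run together. Windows of Cxcl10, induced by interferon and NF-kB, and of Ccl22 are shown for comparison.
Cxcl1, chr5:90890995-90891294, plus strand: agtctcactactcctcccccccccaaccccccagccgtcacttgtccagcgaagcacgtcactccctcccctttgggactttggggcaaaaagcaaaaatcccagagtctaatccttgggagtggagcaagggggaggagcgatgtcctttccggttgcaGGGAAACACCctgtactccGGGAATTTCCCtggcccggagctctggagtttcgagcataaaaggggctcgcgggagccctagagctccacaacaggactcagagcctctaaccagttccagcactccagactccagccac
Cxcl2, chr5:90903649-90903948, plus strand: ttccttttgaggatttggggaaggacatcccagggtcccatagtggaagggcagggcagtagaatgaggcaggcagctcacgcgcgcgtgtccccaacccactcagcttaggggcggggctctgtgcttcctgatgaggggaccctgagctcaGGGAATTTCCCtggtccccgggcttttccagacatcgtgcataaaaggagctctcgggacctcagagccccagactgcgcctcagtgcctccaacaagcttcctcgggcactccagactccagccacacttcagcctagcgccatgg
Cxcl10, chr5:92348840-92349139, minus strand: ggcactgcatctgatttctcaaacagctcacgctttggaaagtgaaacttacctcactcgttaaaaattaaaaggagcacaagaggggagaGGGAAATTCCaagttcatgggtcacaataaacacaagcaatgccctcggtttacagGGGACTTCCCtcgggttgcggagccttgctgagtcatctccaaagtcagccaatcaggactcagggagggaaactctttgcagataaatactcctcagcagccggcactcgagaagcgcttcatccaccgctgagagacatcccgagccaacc
Ccl22, chr8:94745434-94745733, plus strand: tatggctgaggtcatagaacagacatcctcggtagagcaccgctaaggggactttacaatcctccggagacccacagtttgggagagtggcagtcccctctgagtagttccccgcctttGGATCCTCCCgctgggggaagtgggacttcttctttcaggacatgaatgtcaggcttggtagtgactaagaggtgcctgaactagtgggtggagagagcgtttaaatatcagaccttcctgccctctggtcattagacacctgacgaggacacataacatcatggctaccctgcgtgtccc

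In Cxcl1 and Cxcl2 the shared match GGGAATTTCC began 71 and 97 bases before the start, and Cxcl3 held it 73 bases before. Windows were at hand for 27 of the 39 genes, and 12 of them held a match to the NF-kB motif. Of all 32851 promoter windows, 20.7% did. For Ccl21b and Ccl27b the window (chr4:42172870-42173169 and chr4:42650313-42650612) lies well before the annotated gene start (42255767 and 42655251). These 2 windows may not be the promoters of those genes, and that of Ccl27b is among the 12. Among the genes with a window, 3 of the 7 that rose held a match (Cxcl1, Cxcl2 and Ccl22), as did Cxcl13, which fell. Ccl19, Ccl27a, Cxcl9 and Cxcl10, which were tested and not called, held one too. The rest of the 12, Ccl1, Ccl20, Ccl27b and Cxcl3, were not tested. The GLI motif GACCACCCA, through which hedgehog targets are bound, was in none of the 27 windows and in 0.253% of all windows. A match of letters is a description of the window and does not show that a factor binds there.

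The ligands of monocyte and eosinophil receptors form a cluster on chromosome 11, from 82035571 to 82305690 in mm10. Ccl11, the eotaxin gene, measured 34.0, 23.0 and 21.1 CPM in IgG replicates 1 to 3 and 47.3, 97.2 and 75.4 CPM in 5E1 replicates 1 to 3. Its neighbour Ccl7, a monocyte attractant acting through Ccr2, measured 8.34, 2.52 and 5.66 CPM against 13.5, 24.2 and 16.4 CPM. For both, all 5E1 libraries were above all IgG libraries and 5E1 replicate 2 was the highest. Ccl11 rose by a log2 fold change of 1.49 (SE 0.31, edgeR adjusted p 0.0191), and lost the call, with p of 0.0642 to 0.0927, without IgG replicate 2 or 3, without 5E1 replicate 3 and with no low-count filter. Ccl7 rose by 1.69 (SE 0.41, edgeR adjusted p 0.0258), and lost the call, with p of 0.0604 to 0.0982, without IgG replicate 3, 5E1 replicate 2 or 5E1 replicate 3. Ccl2, the next gene of the cluster and the main Ccr2 ligand, measured 10.8, 3.52 and 7.69 CPM against 13.6, 19.4 and 16.1 CPM, again with no overlap. Its log2 fold change of 1.14 (SE 0.35) fell just short at an edgeR adjusted p of 0.0505, and 8 of the 15 alternatives called it, DESeq2 at 0.000894 among them. Ccl8, a Ccr8 ligand in mice, stayed between 0.0543 and 1.22 CPM and was not called (edgeR adjusted p 0.871), and Ccl12 and Ccl1 had too few reads to test. Among the receptors, Ccr2 rose from 1.41 ± 0.215 to 4.502 ± 1.27 CPM, which is 1.65 on the log2 scale (SE 0.30, edgeR adjusted p 0.00311). Ccr3, the eotaxin receptor of eosinophils, was too low to test, with 7 reads in IgG replicate 1 and none in the other libraries, and Ccl24 and Ccl26, the other eotaxin genes, were not tested.

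A cluster of macrophage inflammatory protein genes lies on the same chromosome, from 83525778 to 83664683. Ccl9, a mouse ligand of Ccr1, measured 1.29, 0.895 and 1.45 CPM in IgG and 4.29, 8.18 and 4.97 CPM in 5E1. The groups were far apart, and Ccl9 had the smallest adjusted p of the family (log2 fold change 2.24, SE 0.32, edgeR adjusted p 0.000845, at most 0.00497 in the 15 alternatives). Ccl6, its nearest neighbour and another Ccr1 ligand of mice, measured 7.25, 10.8 and 9.36 CPM against 14.7, 41.3 and 13.0 CPM. The groups did not overlap, but 5E1 replicate 2 was far above the other 5E1 libraries and the log2 fold change of 1.35 (SE 0.50) was not called (edgeR adjusted p 0.109). Without that library it was 0.60 and was called (edgeR adjusted p 0.0356). Ccl3, a ligand of Ccr1, measured 0.851, 1.23 and 1.49 CPM against 2.66, 3.09 and 1.80 CPM and rose by a log2 fold change of 1.09 (SE 0.35, edgeR adjusted p 0.0446). That call ended, at 0.0527 to 0.158, when any 1 IgG replicate was left out, without 5E1 replicate 1 or 2, with library size alone and with a term for Y-linked reads. Ccl4, the macrophage inflammatory protein gene beside Ccl3, measured 0.647, 0.112 and 0.653 CPM against 0.760, 2.68 and 1.43 CPM (a log2 change of 1.74 with SE 0.60, edgeR adjusted p 0.0599), and DESeq2 called it at 0.0277. Ccl5, which T cells and NK cells are known to make, was not called (0.467 ± 0.0698 and 0.783 ± 0.470 CPM, edgeR adjusted p 0.341). The receptor gene Ccr1 rose from 1.46 ± 0.291 to 6.91 ± 2.80 CPM, by 2.25 on the log2 scale (edgeR adjusted p 0.00104). Lyz2, the most abundant macrophage marker, measured 64.3 ± 7.19 CPM in IgG and 119 ± 44.5 CPM in 5E1. It was highest in 5E1 replicate 2 at 163 CPM and was not called (edgeR adjusted p 0.0662).

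The largest log2 fold changes among the 10 ligand genes that rose were those of Ccl22 and Ccl17, ligands of Ccr4 that are known as products of dendritic cells and macrophages. Ccl22 measured 2.04, 2.13 and 0.834 CPM in IgG replicates 1 to 3 and 7.06, 18.2 and 12.4 CPM in 5E1 replicates 1 to 3. Ccl17 measured 0.613, 0.448 and 0.363 CPM against 1.25, 6.19 and 2.24 CPM. The groups did not overlap for either gene, and within 5E1 both were lowest in replicate 1 and highest in replicate 2. The log2 fold changes were 2.94 for Ccl22 (SE 0.44, edgeR adjusted p 0.00290, called in all 15 alternatives) and 2.77 for Ccl17 (SE 0.59, edgeR adjusted p 0.00935). For Ccl17 the value was 1.88 without 5E1 replicate 2, and the call ended without IgG replicate 3 (edgeR adjusted p 0.0526). Both lie on chromosome 8 (94745590 to 94751699 and 94810453 to 94812036 in mm10) with Cx3cl1 between them. Cx3cl1, a membrane-tethered chemokine, measured 0.851, 1.51 and 1.41 CPM against 1.03, 2.74 and 1.40 CPM and was not called (log2 fold change 0.49, SE 0.43, edgeR adjusted p 0.447). Its receptor Cx3cr1 was not called either (2.0001 ± 0.292 and 1.67 ± 0.176 CPM). Ccr4 was too low to be tested. Beside these values, the 6 dendritic cell markers summed to 11.0 to 12.1 CPM in IgG and 13.1 to 18.47 CPM in 5E1, with Itgax and Flt3 higher and Zbtb46 level at 8.65 ± 0.565 and 8.73 ± 0.658 CPM. Ccr7, a receptor of mature dendritic cells and lymphocytes, rose from 1.84 ± 0.679 to 7.11 ± 1.99 CPM, a difference of 1.95 on the log2 scale (SE 0.31, edgeR adjusted p 0.00164). Its ligand Ccl19 was not called (0.251 ± 0.374 and 0.785 ± 0.183 CPM, edgeR adjusted p 0.233, and 0.0179 without IgG replicate 1). Ccl21a, Ccl21b and Ccl21c, the other Ccr7 ligand genes, had no read in any library. They are near-identical copies, so reads from them may align to several places, and such reads are not assigned to a gene in these counts.

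Cxcl13 was the exception in direction. This attractant of B cells, acting through Cxcr5, measured 5.99, 4.25 and 6.96 CPM in IgG replicates 1 to 3 and 2.82, 4.04 and 2.98 CPM in 5E1 replicates 1 to 3. Every 5E1 library was below every IgG library, but 5E1 replicate 2 and IgG replicate 2 were close. Cxcl13 fell by 0.80 on the log2 scale (SE 0.25, edgeR adjusted p 0.0402). The call ended, at 0.0631 to 0.158, without IgG replicate 1 or 3, without 5E1 replicate 1 or 3 and with a term for Y-linked reads. Cxcr5 was not called (2.05 ± 0.665 and 2.29 ± 0.341 CPM). The 6 B cell markers summed to 5.92 to 8.67 CPM in IgG and 10.48 to 20.1 CPM in 5E1, with 1 of 5 tested members higher.

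Ligands of the interferon-induced group, which act on Cxcr3, did not pass. Cxcl10 measured 22.8, 9.62 and 23.6 CPM in IgG and 20.1, 20.2 and 22.4 CPM in 5E1, with IgG replicate 2 the 1 library that was low. The difference of 0.15 on the log2 scale (SE 0.30) was not called (edgeR adjusted p 0.762). Cxcl9 measured 0.613, 0.392 and 3.95 CPM against 1.14, 0.625 and 0.0736 CPM, and its log2 fold change of -1.51 (SE 1.06, edgeR adjusted p 0.351) was 0.21 without IgG replicate 3. Cxcl11, annotated as a polymorphic pseudogene, had 2 reads in all. In the wider list of interferon response genes, 2 of 15 tested rose and none fell, a share near the 12.1% of all genes tested that rose, and the median was -0.07 on the log2 scale. The 2 were Ifih1 (0.80, edgeR adjusted p 0.0324) and Irf1 (0.43, edgeR adjusted p 0.0430). With 1 library left out, 0 or 1 of the list was called, and Ifit3, the next by p, measured 3.39 ± 1.85 and 2.23 ± 0.947 CPM.

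Among the remaining ligands, Cxcl16, which is membrane-tethered and binds Cxcr6, rose from 9.49, 11.4 and 9.76 CPM to 13.4, 16.0 and 13.9 CPM. The groups did not overlap, which came to 0.50 on the log2 scale (SE 0.14, edgeR adjusted p 0.0283). The call ended, at 0.0674 to 0.115, without IgG replicate 1 or 3, without 5E1 replicate 2 or 3 and with library size alone. Of its exon bases, 552 overlap Zmynd15 on the opposite strand. Since the strand setting is not given in the sources used here, reads there may be set aside as ambiguous or given to the wrong gene. Ccl28 and Ccl27a, ligands of Ccr10, and Ccl25, the ligand of Ccr9, each read higher in all 5E1 libraries without passing. Ccl28 measured 1.29 ± 0.152 and 2.166 ± 0.266 CPM (a log2 change of 0.74 with SE 0.30, edgeR adjusted p 0.103). Ccl27a measured 4.98 ± 0.292 and 5.90 ± 0.543 CPM (0.24, SE 0.18), and Ccl25 measured 2.93 ± 0.187 and 3.4996 ± 0.367 CPM (0.25, SE 0.23). Exons of Ccl25, Ccl27a and Cxcl10 overlap genes on the opposite strand by 204, 8 and 133 bases. Cxcl17, a mucosal chemokine, was low and not called (edgeR adjusted p 0.138). Just inside the level of 1 CPM in 3 libraries, the library that ranks 3 from the top had, for Ccl17 and Cx3cl1, 1.22 and 1.51 CPM on plain gene counts, and just outside, Ccl4 and Ccl19 had 0.742 and 0.704 CPM. The 7 genes with reads that were not tested, Ccl1, Ccl12, Ccl20, Ccl24, Cxcl3, Cxcl11 and Xcl1, had 2 to 45 reads over the 6 libraries and at most 0.565 CPM in any. Ccl26 and Ccl27b, with the Ccl21 genes, made up the 5 with no read.

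Across the 21 genes the libraries of a group did not vary evenly. 5E1 replicate 2 was the highest of its group for 15 of the 21, where it was the highest for 37.4% of all genes tested. 5E1 replicate 1 was the lowest of its group for 12 of the 21, where it was the lowest for 32.7% of all genes tested. IgG replicate 2, the library with the fewest reads, was the lowest of its group for 10 of the 21, where it was the lowest for 37.5% of all genes tested. It was the lowest of all 6 libraries for 9, among them Cxcl12, Cxcl1, Cxcl2, Ccl2, Ccl7 and Cxcl10. Without 5E1 replicate 2, 7 genes rose, and 6 of these were among the 10. Without IgG replicate 2, 9 rose, and 8 of these were among the 10.

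**Figure D3:**
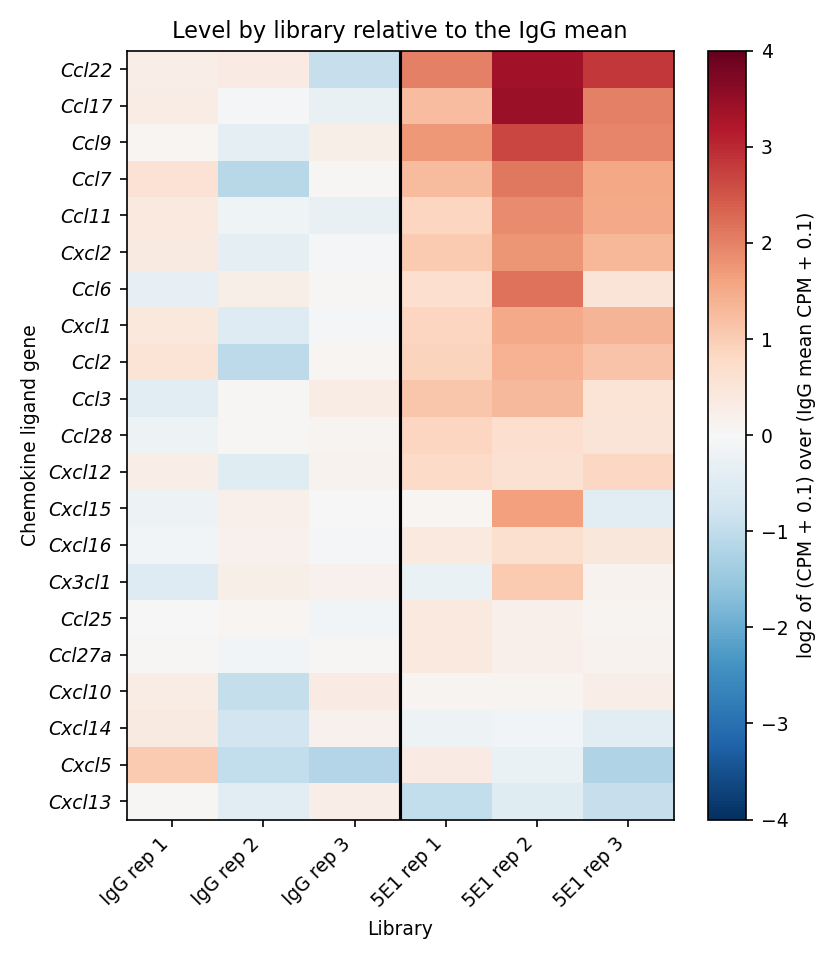
Level of the 21 genes in each library relative to the IgG mean of that gene, as log2 of CPM with 0.1 added. Rows run from the highest to the lowest log2 fold change and the black line parts IgG from 5E1. The 5E1 columns are red from Ccl22 down to Cxcl12, with replicate 2 the strongest from Ccl22 to Ccl3 but not at Ccl28 and Cxcl12, and blue at Cxcl13.

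Receptors of these ligands were read beside them. Of 17 typical chemokine receptor genes 9 were tested, and Ccr1, Ccr2, Ccr7 and Cxcr2 rose while none fell, where 12.1% of all genes tested rose and 11.1% fell. The mean levels of these 4 in 5E1 were 2.79 to 7.11 CPM. With 1 library left out the number was 3 or 4, being 3 without IgG replicate 2. Of 5 atypical receptor genes none rose and Ackr3 alone fell, and Ccrl2 measured 13.7 ± 3.02 and 18.2 ± 3.17 CPM (edgeR adjusted p 0.128). The median log2 fold change was 0.54 for the 9 typical and 0.42 for the 5 atypical receptor genes.

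**Figure D4:**
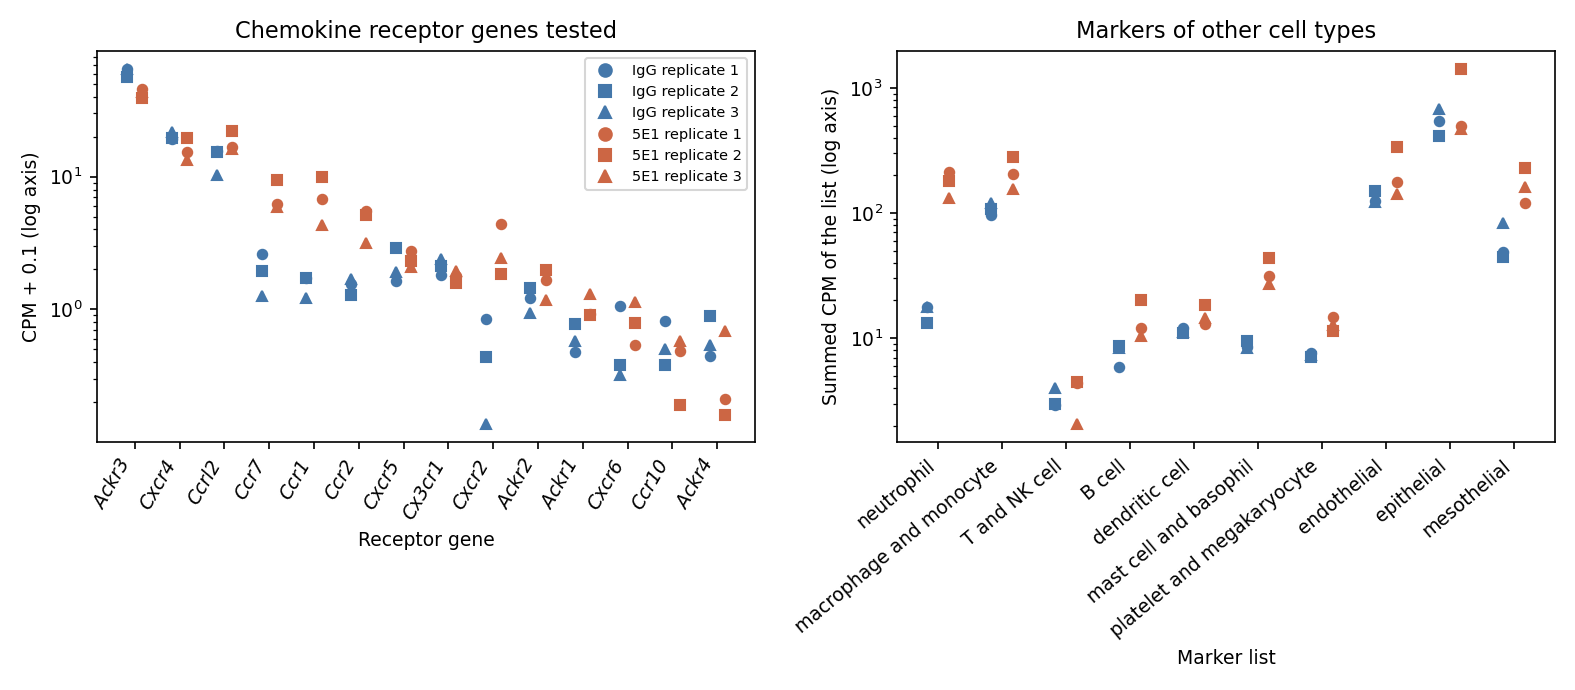
Left, CPM (with 0.1 added, log axis) of the 14 chemokine receptor genes plotted, by library. Right, summed CPM (log axis) of 10 marker lists of other cell types. Ackr3 is lower in all 5E1 libraries and Ccr7, Ccr1, Ccr2 and Cxcr2 are higher in all of them, as are the neutrophil sums (132 to 213 against 13.3 to 17.9 CPM), while the T and NK cell sums overlap.

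The NF-kB pathway acts upstream of many chemokine genes. Of 15 tested genes of this pathway and its feedback, 8 rose and none fell (median log2 fold change 0.42, against 0.00 for all genes and with 12.1% of all genes higher). The 7 not called were Nfkb1, Rel, Rela, Nfkbib, Nfkbie, Ikbkb and Traf1. Their log2 fold changes ran from -0.05 for Rela to 0.73 for Traf1, with Rel at 0.05, Nfkb1 at 0.16 and Ikbkb at 0.18. Map3k14, the kinase of the alternative NF-kB pathway, measured 16.5, 14.5 and 14.8 CPM in IgG and 28.4, 32.5 and 29.1 CPM in 5E1, with no overlap (log2 fold change 0.97, SE 0.11, edgeR adjusted p 0.000255). Bcl3 rose from 6.79 ± 1.07 to 14.8 ± 1.28 CPM and Birc3 from 16.9 ± 3.62 to 30.6 ± 1.24 CPM, with edgeR adjusted p of 0.000939 and 0.00224. Between 6 and 8 of the list rose with 1 library left out. Of 13 tested inflammatory cytokine and adhesion genes 5 rose and none fell, with a median of 1.07, beside the same 12.1% of all genes. Il1b, a cytokine gene of myeloid cells, rose from 7.68 ± 0.787 to 20.8 ± 4.22 CPM. The leukocyte adhesion genes Vcam1 (164 ± 25.4 to 347 ± 81.0 CPM) and Icam1 (125 ± 33.8 to 262 ± 29.4 CPM) rose by log2 fold changes of 1.08 and 1.07, with edgeR adjusted p of 0.00312 and 0.00417. Limma-voom called 9 of the list.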

How the data were processed

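RNA from sorted EGFP-positive lung cells of 6 mouse samples, 3 IgG and 3 5E1, was sequenced from a stranded poly(A) library kit, per the labels' protocols. Each deposited file holds unnormalised counts of reads for 48397 gene symbols and 5 HTSeq summary lines. HTSeq 0.6.0, STAR 2.5.0c, R 3.5.1, DESeq2 1.10.0, Picard 1.126, bedtools 2.17.0 and build mm10 are named in the submitters' processing notes, with no role or order. Not given in the sources used here: annotation, strand setting and duplicate handling. These summary lines name no gene and entered neither library sizes nor tests. Reads ambiguous between genes were 3.62% to 3.88% of uniquely aligned reads. Replicate pairs differed by more than sampling noise (chi-square per degree of freedom 16.1 to 55.8).

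Genes passed the default filterByExpr (at least 10 reads, 15 in total), were TMM-scaled and entered the two-sided quasi-likelihood test of edgeR 4.0.16 under R 4.3.3, robust, with antibody group in the model. The Benjamini-Hochberg adjustment ran over the 16198 genes that passed. Log2 fold changes compare 5E1 with IgG (prior count 0.125), and SE is the coefficient without that prior divided by the root of F. The procedure was tested on simulated data. Every member with at least 1 CPM in 3 libraries is named, as are all called receptors, the 3 smallest p of other signalling lists and abundant markers. Members and lists were chosen with earlier results of these data known. Alternatives were DESeq2 1.42.0, limma-voom (limma 3.58.1), RLE factors, library size alone, other filters, non-robust fits, blocking on replicate number (given apart from the other alternatives, since the numbers did not pair the libraries), a term for Y-linked reads and each library left out. Positions and exon lengths come from GENCODE M21 (GRCm38), which matched 38 of 39 members, and promoters from RefSeq on GRCm38.p6. Counting precision rests on reads that are not independent molecules. The receptor list is not complete, since 1 gene is not reported here.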

Additional observations from a re-analysis of the deposited data

How the results depend on the processing

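No log2 fold change of a tested chemokine ligand gene that was called in any fit changed sign: of 399 values under the 15 alternatives, 348 kept their side of the threshold, 35 lost the call and 16 gained it. The number of ligand genes that rose, 10, ranged from 4 to 10 with 1 library left out, and the number that fell, 1, ranged from 0 to 2. It was 0 with the replicate block and 0 with a term for Y-linked reads. Over all genes, 2305 to 3704 were called with 1 library left out, 1221 to 1885 of them higher and 1073 to 1819 lower, and 3279 were lower with library size alone. Typical receptor genes that rose numbered 3 to 4 with 1 library left out, and 1 atypical receptor rose with no low-count filter. Of inflammatory cytokine and adhesion genes, 9 rose with limma-voom. Of interferon response genes, 0 to 1 rose with 1 library left out, 0 with library size alone, 0 with a term for Y-linked reads and 1 with the replicate block. The cause was not tested. The replicate numbers gave no sign of pairing: same-numbered libraries had correlations of deviations of -0.11, -0.04 and -0.09, and 0 of 6 libraries correlated best with its own number. With the block, 7 ligand genes rose, 6 of them among the 10: Cxcl1, Ccl11, Ccl7 and Ccl3 did not pass (edgeR adjusted p 0.0906, 0.0904, 0.0882 and 0.0806), nor did Cxcl13 (0.0766), while Ccl6 did (0.0311). Genes near 1 CPM rest on few reads, and a change in them may not be detectable at this depth.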
